A study of Mus musculus with 40 samples.

Results

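The genes described here encode subunits of RNA polymerases I, II and III, the enzymes that copy nuclear DNA into RNA. They were chosen by symbol: every gene named Polr1, Polr2 or Polr3 plus a letter from a to m that had a probe set listed with that gene alone, each gene being represented by its probe set with the highest mean over all arrays. This gave 25 genes of the 14916 tested, carried by 54 of the 45037 probe sets, and 25 of these 25 genes passed the filter on dim probe sets. Polr2k and Polr2l had no probe set listed with them alone and are not analysed here. Polr1f, Polr1g and Polr1h stand in the old probe annotation as Twistnb, Cd3eap and Znrd1, are not among the 25, and are counted with the polymerase I factors.

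The series profiled mouse B6D2 embryos on 39 Affymetrix arrays of poly(A) RNA. The 10 groups were cloned embryos (SCNT, somatic cell nuclear transfer) whose donor nuclei came from cumulus cells of B6D2 females, parthenogenetic embryos (activated eggs with no sperm) and fertilized embryos, each at the 2-cell and the 1-cell stage, and SCNT and fertilized embryos cultured with α-amanitin at both stages. Groups held 4 arrays, except 3 for untreated 1-cell SCNT embryos, whose replicate 2 has an empty column. The letter A in a sample code was taken to mean α-amanitin, which the labels spell out for SCNT samples but not for fertilized ones. MEMα medium is named for SCNT embryos and KSOM for a fertilized sample, so medium and origin cannot be told apart, and the labels do not say whether replicates are separate cultures, so p-values measure only the spread between these arrays.

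Each polymerase is built from a pair of large subunits that form the active site, an assembly pair, a stalk and small subunits, some of them common to all the enzymes. RNA polymerase I makes the large ribosomal RNA precursor, RNA polymerase II makes messenger RNA, and RNA polymerase III makes transfer RNA, 5S ribosomal RNA and other short RNAs. All of the subunits are themselves encoded by messenger RNAs, so their transcripts are made by RNA polymerase II. In the mouse, the fertilized egg starts with maternal transcripts, most of which are lost as the main wave of embryonic transcription begins at the 2-cell stage. α-Amanitin binds the largest subunit of RNA polymerase II, the product of Polr2a, and blocks it; polymerase III is far less sensitive and polymerase I is resistant.

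By role, the 25 genes are 3 of polymerase I only (Polr1a, Polr1b, Polr1e), 2 shared by I and III (Polr1c, Polr1d), 7 of polymerase II only (Polr2a, Polr2b, Polr2c, Polr2d, Polr2g, Polr2i, Polr2j), 3 shared by all 3 enzymes (Polr2e, Polr2f, Polr2h), 9 of polymerase III only (Polr3a to Polr3g, Polr3gl, Polr3k) and Polr2m, which encodes Gdown1, a protein that associates with polymerase II. The results turn on Polr1c, the subunit gene with the widest range between groups, and on the paralogs Polr3g and Polr3gl, which encode alternative forms of the same polymerase III subunit. Their promoters are shown because these genes moved furthest or in opposite ways. The sequences are from RefSeq on GRCm38.p6, 250 bases before to 50 after the start, all on the minus strand: Polr1c at chr17:46247996-46248295, Polr3g at chr13:81710964-81711263 and Polr3gl at chr3:96594132-96594431. Capitals mark matches, on either strand, to the motifs searched.
Polr1c: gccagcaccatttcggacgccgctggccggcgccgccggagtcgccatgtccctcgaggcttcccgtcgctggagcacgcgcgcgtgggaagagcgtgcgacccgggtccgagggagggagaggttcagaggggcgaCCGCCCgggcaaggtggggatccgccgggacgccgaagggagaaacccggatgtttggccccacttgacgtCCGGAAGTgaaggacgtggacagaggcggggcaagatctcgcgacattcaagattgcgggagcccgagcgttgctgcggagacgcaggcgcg
Polr3g: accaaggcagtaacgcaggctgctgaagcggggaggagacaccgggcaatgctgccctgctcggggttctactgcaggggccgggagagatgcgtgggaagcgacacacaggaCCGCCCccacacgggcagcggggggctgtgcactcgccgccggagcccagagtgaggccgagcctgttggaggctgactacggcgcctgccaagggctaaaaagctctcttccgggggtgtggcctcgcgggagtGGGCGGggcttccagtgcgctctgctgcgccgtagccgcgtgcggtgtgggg
Polr3gl: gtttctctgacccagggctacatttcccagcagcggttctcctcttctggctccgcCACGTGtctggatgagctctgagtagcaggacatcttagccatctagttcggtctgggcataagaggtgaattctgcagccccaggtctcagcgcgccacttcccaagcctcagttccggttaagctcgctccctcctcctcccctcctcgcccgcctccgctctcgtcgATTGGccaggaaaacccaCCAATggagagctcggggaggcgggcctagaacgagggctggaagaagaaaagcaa
The Polr1c window holds the ETS motif CCGGAAGT at position -42 and a GC box (GGGCGG) on the other strand at -113, counted back from the first transcribed base. The Polr3g window holds GC boxes at -137 and -2. The Polr3gl window holds no GC box, but an E box (CACGTG) at -194 and the CCAAT motif at -24 and -6. Motifs were counted in 23 windows, which belong to 21 of the 25 genes. The selection of subunit windows left out a chromosome that the set of all windows kept. The shares below therefore compare sets that were chosen differently. The ETS motif was in 5 of these 23 windows (21.7%; Polr1c, Polr1e, Polr2f, Polr2j and Polr3b), against 3.89% of all 32851 promoter windows. GC boxes were in 60.9% of the subunit windows and 35.7% of all windows, the CCAAT motif in 30.4% and 37.4%, the E box in 17.4% and 7.15%, and TATAAA in 8.7% and 13.6%. The NRF1 motif, the YY1 motif AAGATGGCG and the NR5A motif CAAGGTCA were in 0 of the 23 subunit windows and in 0.971%, 1.4% and 1.56% of all windows. These counts describe letters in the windows, with no test, and none of the motifs contains another.

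The values below are log2 of the deposited intensity plus 6.9, quantile normalized, and differences are given in these log2 units with the standard error (SE) from limma. A gene is called where the p-value adjusted over all 14916 genes is under 0.05. The arrays had been scaled by the authors to a common trimmed mean, so that a value is a gene's share of the labelled RNA; a change in the amount of RNA per embryo cannot be told apart from it. Replicate arrays correlated at 0.9397 to 0.9797 across genes, and the 4 arrays of 2-cell SCNT embryos with amanitin were lowest, at a mean of 0.9427 to 0.9459 with their own group. Those 4 arrays also had the highest hybridization controls (10.88 ± 0.23 against 9.52 to 10.04 in the other groups) and the highest spiked poly(A) controls (9.60 ± 0.21), while both 1-cell SCNT groups had the lowest poly(A) controls, 3.73 ± 0.14 with amanitin and 3.60 ± 0.08 without (SD, n = 4 and 3). The 10 oocyte markers (Zp3, Gdf9 and others) averaged between 7.84 and 11.0 on every array. The 5 measured 2-cell markers averaged between 11.0 and 11.4 on untreated 2-cell arrays, against 4.71 to 6.67 on the rest. Single 2-cell markers varied: the smallest stage difference was 0.63 in fertilized and 0.34 in SCNT embryos. With amanitin in fertilized 2-cell embryos their differences ran from -7.66 to 0.47. Of 10 cumulus markers, 7 were measured, with array means of 5.52 to 7.36 in SCNT groups and 4.71 to 7.35 in the fertilized and parthenogenetic ones. These pooled ranges overlapped, as did untreated SCNT and fertilized arrays at each stage. At the 1-cell stage with amanitin, SCNT arrays (5.52 to 5.91) lay above fertilized ones (4.71 to 4.94). There 3 of the 7 were called higher and 0 lower, against 10.1% and 11.4% of all genes. Untreated SCNT arrays lay above parthenogenetic ones at the 1-cell (5.62 to 5.86 against 5.25 to 5.35) and 2-cell stage (7.04 to 7.36 against 6.49 to 6.85). Of the 7 markers, 2 in 1-cell SCNT and 5 in 1-cell parthenogenetic embryos had means under the median of all values, 5.34. In each of the 2-cell groups 3 did. Single markers weigh on these means: stage differences ran from -1.80 to 6.16 in SCNT and -0.34 to 4.32 in parthenogenetic embryos. Levels of different probe sets are not set against each other, since probes differ in brightness.

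Most subunit transcripts were higher at the 2-cell than at the 1-cell stage in SCNT and fertilized embryos, as were 13 of 25 in parthenogenetic ones. In SCNT embryos 18 of 25 rose and 5 fell, against 26.3% of all genes that rose and 34.4% that fell. In parthenogenetic embryos 13 rose and 4 fell (all genes 21.7% and 27.4%), or 10 and 6 with median centring, and in fertilized embryos 19 rose and 5 fell (all genes 25.8% and 34.2%). The median difference over the 25 genes was 1.41 in SCNT, 0.50 in parthenogenetic and 1.63 in fertilized embryos, where the median of all genes was -0.14, -0.04 and -0.13. The SCNT and fertilized comparisons share no array, and 23 of the 25 genes were called in the same direction in both, against 48.2% of all genes, with 0 called in opposite directions. The 3 probe sets of 18S ribosomal RNA moved with the stage in every origin: they averaged 10.81 at the 2-cell against 13.25 at the 1-cell stage in SCNT embryos, 11.22 against 12.98 in parthenogenetic and 10.25 against 13.17 in fertilized ones. Their part in the stage differences was not tested.

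**Figure D1:**
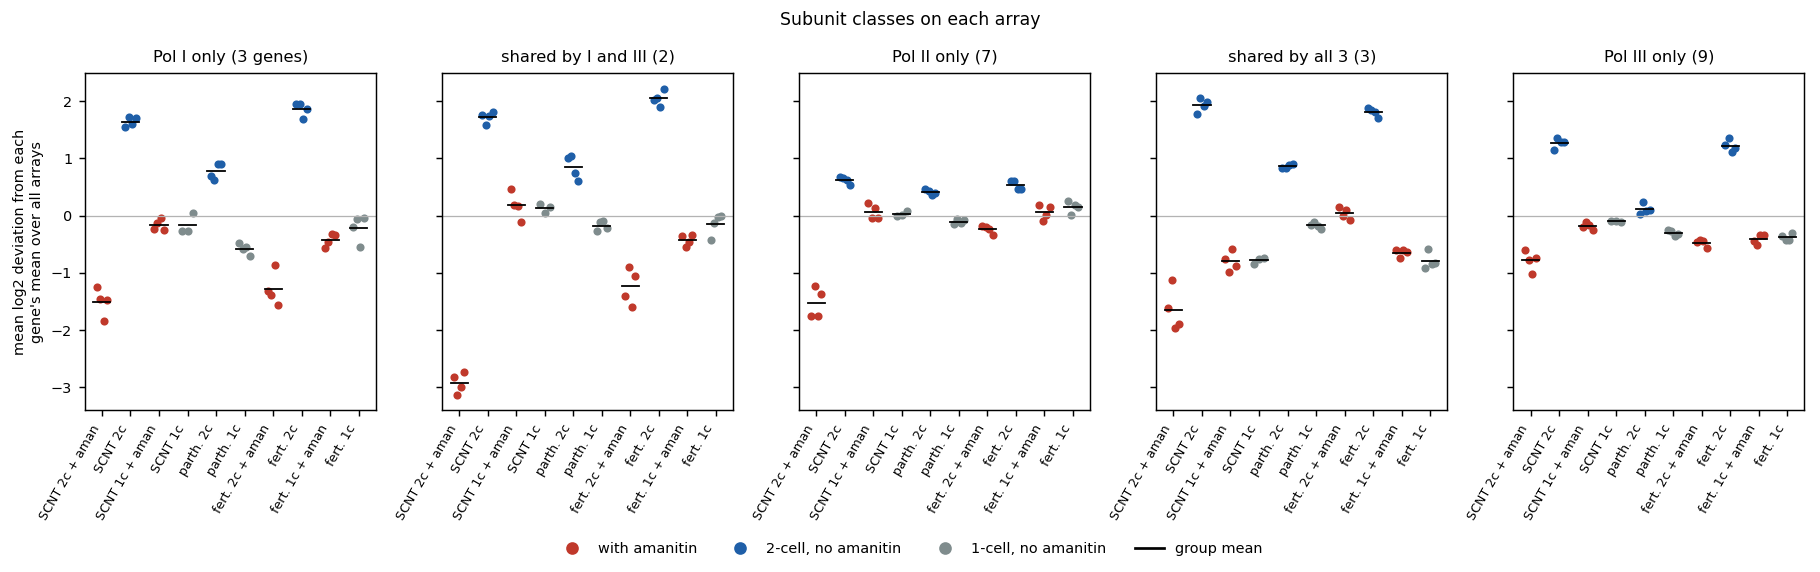
Each point is one array: the mean over the genes of a subunit class of the log2 value minus that gene's mean over all arrays (vertical axis, log2 units), for 10 groups on the horizontal axis, with the group mean as a line. The untreated 2-cell arrays lie above the other arrays in every panel, with parthenogenetic polymerase III closest to the rest (0.11), and 2-cell SCNT embryos with amanitin have the lowest mean in every panel.

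By class the stage differences were as follows. In SCNT embryos the 3 polymerase I genes rose (median 1.98), the 3 shared by all enzymes rose (median 2.85), 6 of 9 polymerase III genes rose and 2 fell (median 1.05), and of 7 polymerase II genes 4 rose, 2 fell and 1 was not called (median 1.27). In parthenogenetic embryos these classes had medians of 1.48, 1.16, -0.14 and 0.49, with 4 polymerase III genes higher, 2 lower and 3 not called. In fertilized embryos the medians were 2.01, 2.81, 1.63 and 0.83, with 7 polymerase III genes higher and 2 lower. These are descriptions of small classes, and the difference between classes was not tested.

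Polymerase I subunits came up together. Polr1a, the largest subunit, rose by 0.98 (SE 0.24) in SCNT embryos, and its parthenogenetic difference was 0.21 (SE 0.22, adjusted p = 0.46). On fertilized arrays it was at 8.03, 7.87, 7.63 and 7.50 at the 2-cell and at 6.90, 6.97, 6.45 and 7.09 at the 1-cell stage, a rise of 0.91 (SE 0.22, adjusted p = 0.000465) with no overlap of the groups. Polr1b, the second-largest subunit, rose by 1.98 (SE 0.19) in SCNT, 1.48 (SE 0.17) in parthenogenetic and 2.01 (SE 0.17) in fertilized embryos. Polr1e, which encodes the PAF53 subunit that pairs with the Cd3eap product, rose by 2.46 (SE 0.22), 2.38 (SE 0.21) and 3.30 (SE 0.21) in the same order.

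The assembly pair of polymerases I and III split. Polr1c, the larger partner, was at 10.79, 10.85, 11.04 and 11.19 in 2-cell SCNT embryos, against 6.75, 6.52 and 6.65 in 1-cell ones, a rise of 4.33 (SE 0.20). Parthenogenetic embryos had 10.69, 10.98, 10.57 and 10.43 at the 2-cell and 6.93, 7.05, 7.08 and 6.94 at the 1-cell stage, a rise of 3.67 (SE 0.18). Fertilized embryos reached 11.86, 11.87, 11.80 and 11.92 at the 2-cell stage, against 6.52, 6.53, 6.55 and 6.52 at the 1-cell stage, a 40.3-fold rise (log2 difference 5.33, SE 0.18, adjusted p = 1.53e-25). In all 3 origins the lowest 2-cell array of Polr1c was therefore above the highest 1-cell array, and its other probe set rose as well, by 3.35, 2.93 and 4.10. Polr1d, the smaller partner, fell by 1.14 (SE 0.15) in SCNT, 1.62 (SE 0.14) in parthenogenetic and 0.95 (SE 0.14) in fertilized embryos. Of the 3 other Polr1d probe sets, 1 went the other way in each origin, with a highest difference of 1.61 in fertilized embryos.

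Among polymerase II genes the response was mixed. Polr2a, the largest subunit, whose tail coordinates capping, splicing and elongation, rose by 1.45 (SE 0.27) in SCNT embryos, and its parthenogenetic difference was 0.33 (SE 0.25, adjusted p = 0.293). It was at 8.08, 7.80, 7.85 and 7.80 on 2-cell and 7.44, 6.92, 6.97 and 6.88 on 1-cell fertilized arrays, a rise of 0.83 (SE 0.25, adjusted p = 0.00427). Polr2b, the second-largest subunit, rose by 1.41 (SE 0.24) in SCNT, 1.84 (SE 0.23) in parthenogenetic and 1.48 (SE 0.23) in fertilized embryos. Polr2i, a small subunit that acts in transcript proofreading, rose by 2.18, 0.49 and 1.92, and Polr2j, a partner in the assembly pair of polymerase II, rose by 1.27, 0.96 and 0.84 in the same order (SE 0.14 to 0.17). With median centring the parthenogenetic difference of Polr2i was 0.0581 (adjusted p = 0.785), no longer called.

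The stalk and the other assembly partner of polymerase II did not follow. Polr2g, a stalk subunit, fell by 0.30 (SE 0.13, adjusted p = 0.0493) in SCNT and by 0.58 (SE 0.12) in parthenogenetic embryos. It had 9.54, 9.67, 9.43 and 9.42 in 2-cell fertilized embryos, against 11.28, 11.23, 11.36 and 11.13 in 1-cell ones, and fell by 1.74 (SE 0.12, adjusted p = 1.16e-15). The SCNT call was lost when any of 5 arrays (1-cell replicates 1, 3 and 4, 2-cell replicates 2 and 3) was left out, with differences of -0.34 to -0.25. Polr2d, the other stalk subunit, differed by -0.37 (SE 0.23) in SCNT and 0.06 (SE 0.21) in fertilized embryos, neither called, and rose by 0.52 (SE 0.21, adjusted p = 0.0421) in parthenogenetic ones, where median centring gave -0.00862 and 7 of the 8 fits without 1 array lost the call (0.45 to 0.55). Polr2c, the assembly partner of Polr2j, fell by 1.44 (SE 0.08) in SCNT and 0.68 (SE 0.07) in fertilized embryos, and its parthenogenetic difference was 0.03 (SE 0.07, adjusted p = 0.8).

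The subunits common to all polymerases rose in SCNT and fertilized embryos. Polr2h rose by 3.08 (SE 0.30) in SCNT embryos, and in parthenogenetic embryos the difference was 0.52 (SE 0.28, adjusted p = 0.123). It was at 10.02, 9.93, 9.84 and 10.01 in 2-cell and 6.69, 7.06, 6.74 and 6.65 in 1-cell fertilized embryos, an 8.99-fold rise (3.17, SE 0.28, adjusted p = 5.29e-13). Polr2e rose by 2.85, 1.43 and 2.81 (SE 0.13 to 0.14) in SCNT, parthenogenetic and fertilized embryos, and its other probe set differed by 0.15, 0.55 and 0.24. Polr2f rose by 2.20, 1.16 and 1.83 (SE 0.12). Polr2m, which encodes the polymerase II associated Gdown1, rose by 3.07 (SE 0.16) in SCNT embryos, and its parthenogenetic difference was -0.11 (SE 0.15, adjusted p = 0.562). It had 9.34, 9.38, 9.03 and 9.32 in 2-cell and 6.68, 6.79, 6.75 and 6.50 in 1-cell fertilized embryos, a rise of 2.59 (SE 0.15).

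In polymerase III the paralogs of one initiation subunit moved apart. In SCNT embryos Polr3g was at 10.35, 10.71, 10.49 and 10.09 at the 2-cell and 5.79, 5.71 and 6.09 at the 1-cell stage, a rise of 4.55 (SE 0.33), while Polr3gl fell by 0.77 (SE 0.27, adjusted p = 0.0135). In parthenogenetic embryos Polr3g was at 8.27, 8.15, 8.22 and 7.998 at the 2-cell and 5.88, 5.92, 5.28 and 6.26 at the 1-cell stage, a rise of 2.32 (SE 0.31), and Polr3gl differed by -0.47 (SE 0.25, adjusted p = 0.122). Fertilized embryos had 9.60, 9.75, 9.63 and 9.63 for Polr3g at the 2-cell stage, against 4.68, 4.67, 3.86 and 5.05 at the 1-cell stage, a 33.9-fold rise (5.09, SE 0.31, adjusted p = 7.9e-18). Polr3gl had 4.98, 5.55, 5.64 and 5.46 in 2-cell and 5.91, 6.03, 6.30 and 6.10 in 1-cell fertilized embryos, a fall of 0.68 (SE 0.25, adjusted p = 0.0187). In both genes the fertilized groups did not overlap, and they lay on opposite sides. The 1-cell mean of Polr3g in fertilized embryos, 4.57, lay under the median of 5.34 over all values, so the size of the difference depends in part on the constant added before the logarithm. The 2-cell SCNT mean of Polr3gl, 5.14, also lay under that median. On the values as deposited its SCNT difference was -0.46 (adjusted p = 0.115), no longer called. The call of Polr3gl was also lost in SCNT embryos without 2-cell replicate 3 (-0.62) or 1-cell replicate 1 (-0.71). In fertilized ones it was lost without 2-cell replicate 1 (-0.54) or 1-cell replicate 3 (-0.61).

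Of the other 7 polymerase III genes, 5 rose in SCNT, 3 in parthenogenetic and 6 in fertilized embryos. Polr3a, the largest subunit, rose by 1.29 (SE 0.20) in SCNT embryos and 0.50 (SE 0.18, adjusted p = 0.0216) in parthenogenetic ones, where median centring gave -0.0358 and the call was lost without 1-cell replicate 3 or 2-cell replicate 2 or 3 (0.40 to 0.47). It was at 11.87, 11.91, 11.45 and 11.50 on 2-cell and 10.20, 9.70, 9.98 and 10.32 on 1-cell fertilized arrays, a rise of 1.63 (SE 0.18, adjusted p = 3.94e-10). Polr3e, which pairs with Polr3d in a module that acts in initiation and termination, rose by 3.71 (SE 0.17) in SCNT embryos and 2.17 (SE 0.16) in parthenogenetic ones. It had 10.31, 10.43, 9.96 and 10.26 in 2-cell and 6.82, 6.53, 6.70 and 6.55 in 1-cell fertilized embryos, a rise of 3.59 (SE 0.16, adjusted p = 2.78e-22), whereas its other probe set gave -0.73, -0.75 and -0.40 in the 3 origins. Polr3k, known in yeast for its part in termination, rose by 2.53, 1.52 and 2.07 (SE 0.12 to 0.13), but 2 of its 3 other probe sets went down in each origin, and with the mean of probe sets the parthenogenetic difference was 0.0687 (adjusted p = 0.706). Polr3b and Polr3c, the second-largest subunit and an initiation subunit, rose by 0.76 and 1.05 in SCNT and 1.80 and 0.91 in fertilized embryos. In parthenogenetic embryos Polr3c instead fell by 0.52 (SE 0.13, adjusted p = 0.00098; -0.90 with median centring), and Polr3b differed by -0.27 (SE 0.21, adjusted p = 0.312). Polr3d rose by 0.65 (SE 0.16) in fertilized embryos and was not called in SCNT (0.37, SE 0.17, adjusted p = 0.0612) or parthenogenetic ones (-0.14, SE 0.16, adjusted p = 0.491). Polr3f, another initiation subunit, fell by 1.19, 1.45 and 0.68 (SE 0.17 to 0.19) in the 3 origins, and 2 of its 3 other probe sets in SCNT and 1 in fertilized embryos had the opposite sign. With the mean of probe sets the falls of Polr3f were no longer called in SCNT (-0.25, adjusted p = 0.164) and fertilized embryos (-0.25, adjusted p = 0.138).

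**Figure D2:**
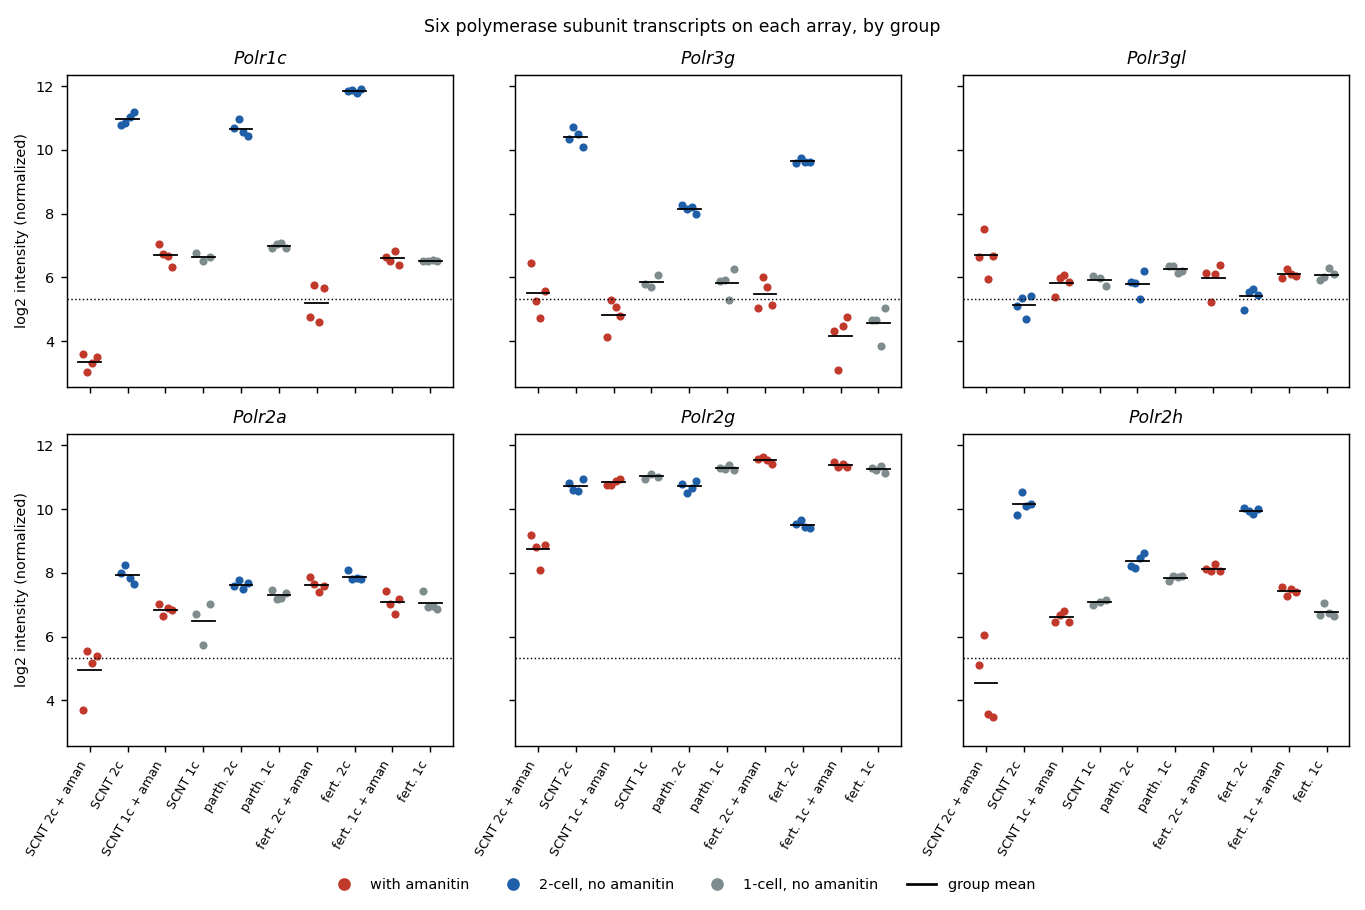
Normalized log2 intensity (vertical axis) of 6 subunit genes on each array (points) in 10 groups (horizontal axis), with group means as lines and the median of all values, 5.34, dotted. Polr1c and Polr3g are highest in the 3 untreated 2-cell groups, Polr3gl is lowest in the 2-cell SCNT group (5.14), and Polr2a, Polr2g and Polr2h are lowest in the 2-cell SCNT group with amanitin.

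With α-amanitin the rise was largely missing. Between the stages in amanitin-treated SCNT embryos, 4 of 25 genes rose, 19 fell and 2 were not called (all genes 25.6% higher and 29.8% lower), with a median of -0.95. In amanitin-treated fertilized embryos 6 rose, 7 fell and 12 were not called (all genes 21.5% and 19.0%), with a median of 0.15. That last split was 8 higher and 6 lower with the values as deposited, and 3 and 12 with median centring. Polr2j rose in both, by 1.17 (SE 0.14) in SCNT and 1.05 (SE 0.14) in fertilized embryos, and Polr3d rose by 1.17 (SE 0.16) and 0.69 (SE 0.16). With median centring the Polr3d differences were 0.61 in SCNT and 0.0946 in fertilized embryos, the fertilized one no longer called (adjusted p = 0.685). Polr3g rose by 1.31 (SE 0.31, adjusted p = 0.000595) in fertilized embryos with amanitin, with 2-cell values of 5.04, 6.01, 5.71 and 5.14 against 1-cell values of 4.31, 3.11, 4.47 and 4.77. Among the genes that fell between the stages in SCNT embryos with amanitin were Polr2b (-3.85, SE 0.23), Polr1c (-3.34, SE 0.18) and Polr3a (-3.00, SE 0.18). These sizes depend on the processing: Polr1c gave -2.22 with the larger constant, and Polr3a gave -1.15 with the mean of probe sets. So does the rise of Polr3g in treated fertilized embryos, which was 0.83 with the larger constant. Its 1-cell mean there, 4.16, lay under the median of all values, 5.34.

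At the 2-cell stage amanitin-treated embryos had lower transcripts of most subunits than untreated ones. In SCNT embryos 20 of 25 genes were lower with amanitin, 4 higher and 1 not called, against 29.7% of all genes lower and 39.6% higher. In fertilized embryos 17 were lower, 5 higher and 3 not called (all genes 25.8% and 38.6%). Median differences were -2.74 in SCNT and -1.85 in fertilized embryos, where all genes had medians of 0.28 and 0.27. These comparisons share no array, and 20 of the 25 genes were called in the same direction in both, against 50.1% of all genes, while 1 was called in opposite directions. The 3 probe sets of 18S ribosomal RNA moved alongside: they averaged 13.15 in SCNT and 12.79 in fertilized 2-cell embryos with amanitin, against 10.81 and 10.25 without, and their part in these differences was not tested.

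Polr1c was lowest with amanitin. It had 3.59, 3.02, 3.33 and 3.51 in SCNT 2-cell embryos with amanitin, against 10.79, 10.85, 11.04 and 11.19 without, a difference of -7.61 (SE 0.18, adjusted p = 3.04e-30). In fertilized 2-cell embryos it had 4.75, 5.77, 4.62 and 5.68 with amanitin and 11.86, 11.87, 11.80 and 11.92 without, a difference of -6.66 (SE 0.18, adjusted p = 3.46e-28). Both amanitin groups thus had means under the median of all values and lay under every 1-cell array of their origin, and the second probe set of the gene gave -5.42 and -4.93. Its partner Polr1d differed between origins: it was lower (-1.67, SE 0.14) in SCNT embryos and not called in fertilized ones (0.09, SE 0.14, adjusted p = 0.603), where its other probe sets ran from -2.15 to 1.18.

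The 3 polymerase I subunits were lower with amanitin in both origins. Polr1a was at 6.65, 6.77, 5.57 and 5.97 with and 7.95, 7.81, 7.91 and 7.84 without amanitin in SCNT 2-cell embryos, a difference of -1.64 (SE 0.22), and at 6.02, 5.63, 6.84 and 5.85 with and 8.03, 7.87, 7.63 and 7.50 without in fertilized ones, a difference of -1.67 (SE 0.22). Polr1b differed by -2.74 and -2.79 (SE 0.17) and Polr1e by -5.07 and -4.93 (SE 0.21) in SCNT and fertilized embryos. Of these 3 genes, 0 were called in the limma test of the difference between origins (0 at an unadjusted p under 0.05). The estimates were 0.03 (SE 0.31), 0.06 (SE 0.24) and -0.13 (SE 0.29). Both treated means of Polr1e, 4.15 in SCNT and 4.81 in fertilized embryos, lay under the median of all values, 5.34. For this gene the test may therefore miss a difference between origins. Of the 14 polymerase I factors, which include Polr1f, Polr1g and Polr1h, the same test called 7. The SCNT effect was higher for 4 of them and lower for 3, against 17.8% and 21.1% of all genes.

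Of the 7 polymerase II genes, the test of the difference between origins called 4 with a lower and 1 with a higher SCNT effect. Among all genes the shares were 21.1% and 17.8%, and the contrast with the polymerase I genes was not tested. The calls of Polr2b and Polr2c were lost when single arrays were left out. That of Polr2b was also lost on the values as deposited (-0.56, adjusted p = 0.0987). In SCNT embryos 5 of the 7 genes were lower with amanitin, 1 was higher and 1 was not called (median -2.45). In fertilized embryos 3 were lower, 3 higher and 1 not called (median -0.25). Polr2a, whose product amanitin binds, had 3.70, 5.55, 5.16 and 5.40 in SCNT 2-cell embryos with amanitin, against 8.01, 8.24, 7.85 and 7.65 without, a difference of -2.98 (SE 0.25, adjusted p = 1.11e-13). The treated mean, 4.95, lay under the median of all values, so the size rests in part on the constant: it was -3.28 with the smaller and -2.45 with the larger. In fertilized 2-cell embryos Polr2a had 7.87, 7.65, 7.39 and 7.60 with and 8.08, 7.80, 7.85 and 7.80 without amanitin, overlapping values with a difference of -0.25 (SE 0.25, adjusted p = 0.387). The difference between the 2 effects was -2.73 (SE 0.36, adjusted p = 4.73e-08).

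Polr2g moved in opposite directions. It had 9.18, 8.82, 8.10 and 8.87 in SCNT 2-cell embryos with amanitin and 10.81, 10.59, 10.57 and 10.94 without, a difference of -1.99 (SE 0.12, adjusted p = 1.29e-17). In fertilized 2-cell embryos it had 11.58, 11.64, 11.55 and 11.40 with amanitin and 9.54, 9.67, 9.43 and 9.42 without, a difference of 2.03 (SE 0.12, adjusted p = 9.16e-18). The groups overlapped in neither origin, and the difference between the effects was -4.02 (SE 0.17, adjusted p = 1.14e-20). Between the stages, its difference in amanitin-treated fertilized embryos was 0.16 (SE 0.12, adjusted p = 0.324).

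In SCNT and fertilized embryos, Polr2b was lower with amanitin by log2 differences of -5.25 and -4.37 (SE 0.23), Polr2d by -2.45 and -2.02 (SE 0.21), and Polr2i by -3.39 and -1.85 (SE 0.15). Polr2c was higher with amanitin in both, by 1.03 (SE 0.07) and 0.77 (SE 0.07), with no overlap of the groups. Polr2j differed by 0.02 (SE 0.14) in SCNT embryos and was higher by 0.31 (SE 0.14, adjusted p = 0.045) in fertilized ones, a call lost when untreated replicate 1, 3 or 4 or amanitin replicate 2, 3 or 4 was left out (0.23 to 0.33).

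Of the shared subunits, Polr2h had 5.11, 6.04, 3.58 and 3.49 in SCNT 2-cell embryos with amanitin and 9.83, 10.54, 10.09 and 10.17 without, a difference of -5.60 (SE 0.28, adjusted p = 1.28e-20). In fertilized embryos it had 8.12, 8.06, 8.29 and 8.07 with and 10.02, 9.93, 9.84 and 10.01 without amanitin, a difference of -1.82 (SE 0.28, adjusted p = 3.13e-07). The SCNT effect minus the fertilized one was -3.78 (SE 0.39), and the treated SCNT arrays were the most spread of any Polr2h group (SD 1.24). The mean of these arrays, 4.55, lay under the median of all values, 5.34, so the size rests in part on the constant. Polr2f differed by -2.36 and -0.74 (SE 0.12), and Polr2e by -2.77 and -2.75 (SE 0.13), in SCNT and fertilized embryos, but the other probe set of Polr2e gave 1.30 and 0.49. Polr2m differed by -3.94 and -2.51 (SE 0.15).

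In polymerase III, Polr3g had 6.44, 5.26, 4.73 and 5.58 with and 10.35, 10.71, 10.49 and 10.09 without amanitin in SCNT 2-cell embryos (-4.90, SE 0.31), and 5.04, 6.01, 5.71 and 5.14 with and 9.60, 9.75, 9.63 and 9.63 without in fertilized ones (-4.18, SE 0.31). Polr3gl went the other way, with 6.65, 7.52, 5.94 and 6.69 in SCNT 2-cell embryos with amanitin and 5.10, 5.36, 4.70 and 5.41 without (1.56, SE 0.25, adjusted p = 7.79e-07), and in fertilized embryos its difference was 0.57 (SE 0.25, adjusted p = 0.0468) with overlapping arrays. That last call was lost without untreated replicate 1, 2 or 4 or amanitin replicate 1, 3 or 4, at 0.42 to 0.62. The paralogs thus had opposite signs in both amanitin comparisons as well.

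Polr3a had 7.59, 7.73, 7.84 and 6.84 with and 11.51, 11.71, 11.89 and 11.55 without amanitin in SCNT 2-cell embryos (-4.17, SE 0.18), and 8.15, 8.22, 8.18 and 7.77 with and 11.87, 11.91, 11.45 and 11.50 without in fertilized ones (-3.60, SE 0.18). Polr3k differed by -5.04 and -2.39 (SE 0.12), Polr3e by -4.51 and -3.47 (SE 0.16), Polr3c by -2.64 and -0.76 (SE 0.13) and Polr3b by -1.54 and -2.24 (SE 0.21) in SCNT and fertilized embryos. For Polr3k 2 of 3 other probe sets, and for Polr3e the other probe set, had the opposite sign. Polr3f was higher with amanitin, by 2.13 (SE 0.17) and 0.82 (SE 0.17), with 1 of its 3 other probe sets lower. Polr3d was higher by 0.68 (SE 0.16) in SCNT embryos, where the mean of its probe sets gave -0.104 and median centring 0.32 (adjusted p = 0.0671).

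**Figure D3:**
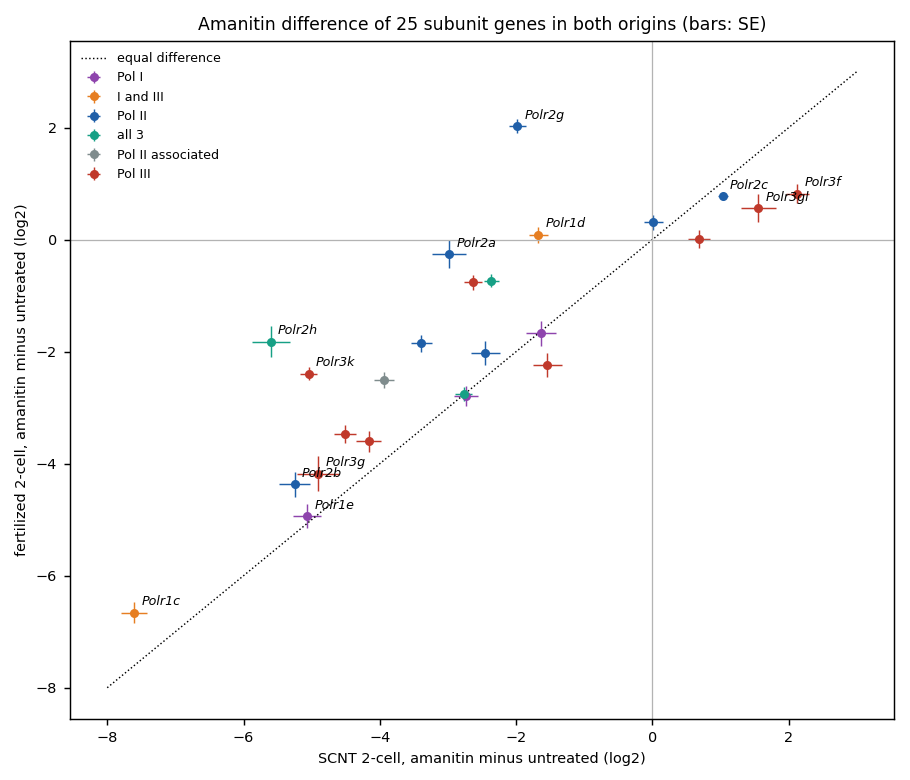
Log2 difference between amanitin-treated and untreated 2-cell embryos for each of 25 genes, in SCNT (horizontal axis) and fertilized embryos (vertical axis), with bars for the SE and colours for the subunit class; the dotted line marks equal differences. Polr1e and the other polymerase I genes lie near the line, while Polr2g, Polr2a and Polr2h lie far above it. The treated means of Polr1e in both origins, and of Polr2a and Polr2h in SCNT embryos, were under the median of all values, which limits these differences.

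The test of the difference between the 2 amanitin effects called 16 of the 25 genes, 12 with a lower and 4 with a higher SCNT effect, against 21.1% and 17.8% of all genes. By class these were 0 of 3 polymerase I genes, both shared by I and III, 5 of 7 of polymerase II, 2 of 3 shared by all, Polr2m, and 6 of 9 of polymerase III. The largest were Polr2g (-4.02), Polr2h (-3.78), Polr2a (-2.73) and Polr3k (-2.65, SE 0.18). The treated SCNT arrays of Polr2h and Polr2a are dim, as given above, and Polr3k gave -1.56 with the mean of probe sets. For Polr1c, at -0.95 (SE 0.26), the size rests on the added constant, since the treated arrays are dim: it was -1.74 with the smaller constant and -0.16 with the larger. As given above, the amanitin-treated 2-cell SCNT arrays also stand apart in their spiked and hybridization controls, and how far that enters these differences was not tested.

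At the 1-cell stage few subunits differed with amanitin. In SCNT embryos limma called 0 of 25 (2 at an unadjusted p under 0.05), where 0.429% of all genes were called. In fertilized embryos 1 gene was higher and 1 lower, against 3.59% and 2.45% of all genes, with 1 and 3 on the values as deposited and 6 and 0 with median centring. Polr3b had 6.91, 7.17, 6.96 and 6.96 with and 6.34, 6.06, 6.36 and 5.92 without amanitin (0.83, SE 0.21, adjusted p = 0.0123), a call lost without untreated replicate 4 (0.75) or amanitin replicate 2 (0.77) and with the mean of probe sets (0.26, adjusted p = 0.637). Polr1d had 10.36, 10.11, 9.99 and 10.65 with and 10.37, 10.96, 11.13 and 11.18 without (-0.63, SE 0.14, adjusted p = 0.00494), with overlapping arrays, and -0.21 (adjusted p = 0.39) with median centring.

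Untreated SCNT and fertilized embryos were compared at each stage. At the 2-cell stage 3 of 25 genes were higher and 3 lower in SCNT embryos, against 14.3% and 16.3% of all genes, with a median of 0.05. The counts were 2 higher and 5 lower with median centring, and 5 higher and 6 lower with only the groups compared in the fit. Higher were Polr2g (1.21, SE 0.12), Polr3k (0.83, SE 0.12) and Polr2m (0.43, SE 0.15, adjusted p = 0.0238), and lower were Polr1c (-0.89, SE 0.18), Polr2c (-0.88, SE 0.07) and Polr3d (-0.74, SE 0.16). The Polr2m call was lost without fertilized replicate 3 (0.35) or SCNT replicate 1 or 2 (0.41 and 0.35), and with median centring (0.19). At the 1-cell stage Polr3g alone was called (all genes 2.87% higher and 2.69% lower), with 5.79, 5.71 and 6.09 in SCNT and 4.68, 4.67, 3.86 and 5.05 in fertilized embryos (1.30, SE 0.33, adjusted p = 0.0125). That call was lost without fertilized replicate 3 (1.06) or SCNT replicate 4 (1.18), and with only the groups compared in the fit (adjusted p = 0.0579).

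With amanitin the origins were further apart. At the 2-cell stage 16 genes were lower and 2 higher in SCNT than in fertilized embryos, against 24.6% and 18.6% of all genes, with Polr2h (-3.58, SE 0.28), Polr2g (-2.80, SE 0.12) and Polr2a (-2.67, SE 0.25) lowest, and Polr3f (1.27, SE 0.17) and Polr3gl (0.73, SE 0.25) higher. The Polr3gl call was lost without replicate 2 of either group (0.45 and 0.48). Averaging the probe sets ended the calls of Polr1e (-0.14), Polr3e (-0.21) and Polr3a (0.00856). Polr2b lost its call on the values as deposited (-0.39) and without fertilized replicate 1 or 2 or SCNT replicate 3 or 4 (-0.58 to -0.23). Polr1e also lost it without fertilized replicate 3 (-0.44) or SCNT replicate 2 (-0.50), and Polr3a without SCNT replicate 4 (-0.36). At the 1-cell stage 5 were higher and 4 lower (all genes 10.1% and 11.4%; 8 and 4 on the values as deposited, 4 and 5 with median centring), among them Polr1d (1.11, SE 0.14), Polr3f (0.99, SE 0.17) and Polr3k (0.94, SE 0.12) higher and Polr2h (-0.83, SE 0.28) lower, the last a call lost without SCNT replicate 1 or 4 or fertilized replicate 1 or 3 (-0.81 to -0.78). With the mean of probe sets Polr3f gave 0.12 (adjusted p = 0.649), no longer called, and Polr3k 0.38. The change between the stages without amanitin differed between SCNT and fertilized embryos for 5 genes, 1 with a higher and 4 with a lower SCNT change (all genes 8.62% and 10.4%). These were Polr2g (1.43, SE 0.18) and, lower, Polr3b (-1.04, SE 0.31), Polr1c (-1.01, SE 0.27), Polr1e (-0.84, SE 0.31, adjusted p = 0.0493) and Polr2c (-0.77, SE 0.11). The Polr1e call was lost in 10 of 15 fits that left out an array of these 4 groups, at -0.91 to -0.66. With the mean of probe sets Polr3b gave -0.17 (adjusted p = 0.814), no longer called.

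Parthenogenetic embryos had lower subunit transcripts at the 2-cell stage. There 19 of 25 genes were lower and 2 higher than in fertilized embryos, against 21.0% and 26.4% of all genes, with a median of -1.03 where that of all genes was 0.07. Lower were 8 of 9 polymerase III genes, with 1 not called, the 3 polymerase I genes and both shared by I and III, while of polymerase II 3 were lower and 2 higher. The Polr3k call was lost with the mean of probe sets (-0.16, adjusted p = 0.342). That of Polr3d was lost without fertilized replicate 1 or parthenogenetic replicate 1 or 2 (-0.41 to -0.29). Polr3f lost its call without parthenogenetic replicate 3 (-0.27), and Polr2b without replicate 4 of either group (-0.58 and -0.57). Polr2m had 7.02, 6.69, 6.56 and 6.20 in parthenogenetic and 9.34, 9.38, 9.03 and 9.32 in fertilized 2-cell embryos, a 6.27-fold lower level (-2.65, SE 0.15, adjusted p = 6.43e-18). Polr3b had 5.88, 5.83, 6.15 and 5.45 against 8.03, 8.04, 7.90 and 7.91 in fertilized embryos (-2.14, SE 0.21). Polr3a had 9.66, 10.12, 9.93 and 9.60 against 11.87, 11.91, 11.45 and 11.50 (-1.86, SE 0.18). The groups did not overlap for any of these genes.

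Higher in parthenogenetic 2-cell embryos were Polr2g, with 10.79, 10.52, 10.67 and 10.88 against 9.54, 9.67, 9.43 and 9.42 in fertilized ones (1.20, SE 0.12), and Polr2c (0.78, SE 0.07). At the 1-cell stage 4 genes were higher and 5 lower (all genes 10.9% and 9.52%; 3 and 6 on the values as deposited, 6 and 5 with median centring), with Polr3g (1.27, SE 0.31) and Polr2h (1.07, SE 0.28) higher and Polr2d (-1.16, SE 0.21) and Polr2b (-0.98, SE 0.23) lower. The change between the stages was smaller, or more negative, in parthenogenetic than in fertilized embryos for 16 genes and larger for 2 (all genes 15.7% and 19.8%). The largest such differences were those of Polr3g (-2.76, SE 0.43), Polr2m (-2.70, SE 0.21) and Polr2h (-2.65, SE 0.39), and 8 of 9 polymerase III genes were among the 16. All 5 measured 2-cell markers were called as well, 2 higher and 3 lower in parthenogenetic than in fertilized 2-cell embryos (median -0.75, range -1.36 to 1.72). The oocyte markers averaged 9.07 to 9.27 in parthenogenetic and 8.12 to 8.28 in fertilized 2-cell embryos, and the part of either list in these differences was not tested.

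**Figure D4:**
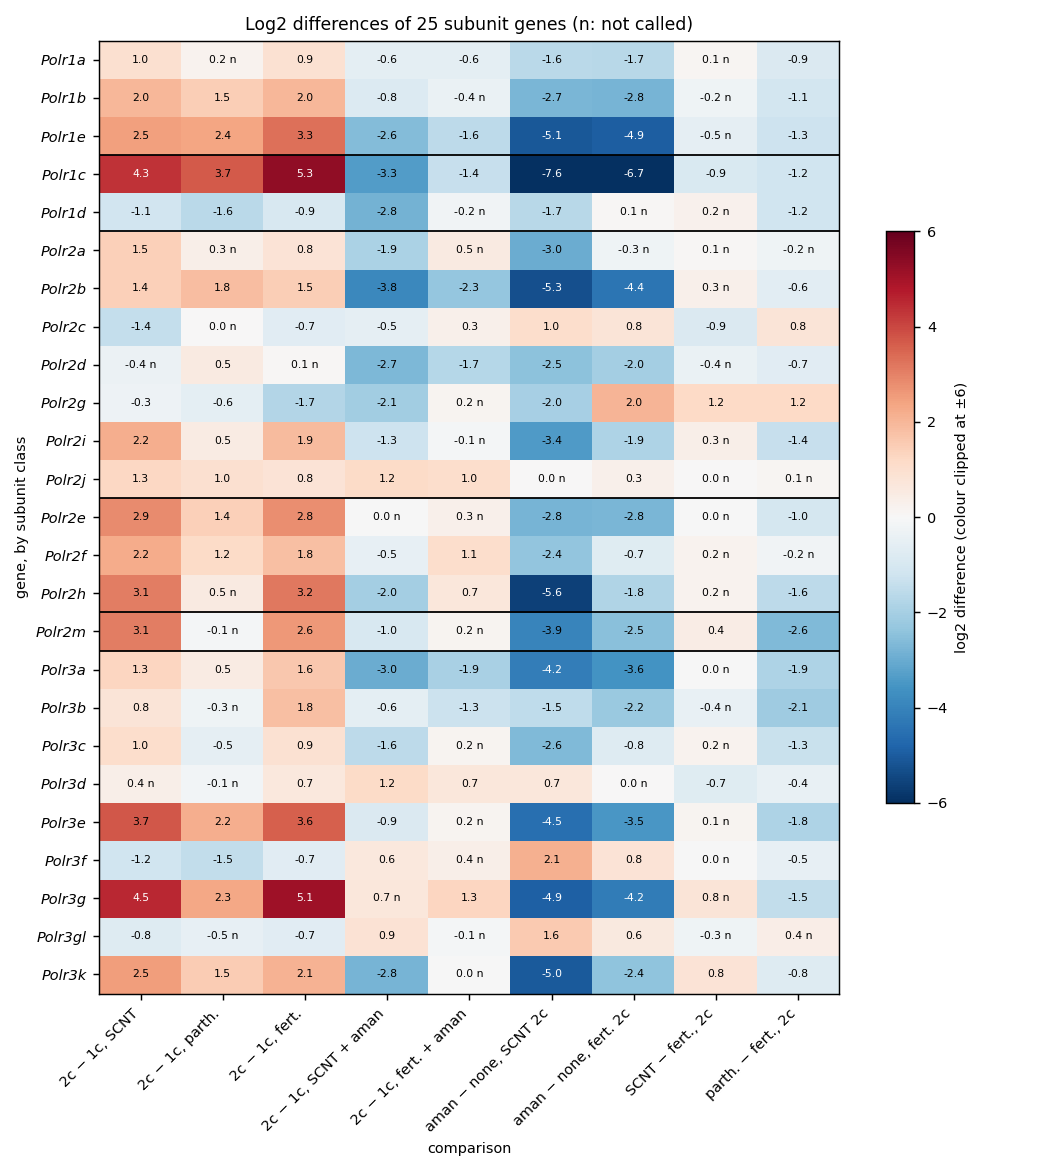
Log2 differences (numbers and colour) of 25 subunit genes (rows, by class) in 9 comparisons (columns), with n after a value that was not called. Positive values prevail in the untreated stage columns and negative ones in the 2-cell amanitin columns, while Polr2c and Polr3f have the opposite signs in the SCNT and fertilized columns of both.

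Across all 10 groups, 19 of the 25 genes had their highest mean in an untreated 2-cell group (11 in SCNT, 7 in fertilized and 1 in parthenogenetic embryos), and 12 had the 3 untreated 2-cell groups on top. For 16 genes the lowest group was amanitin-treated 2-cell SCNT embryos. The lowest group was an untreated 2-cell one for 3 genes.

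Other genes of the 3 transcription systems were described from lists chosen with earlier results known. All genes, for comparison, rose and fell between the stages in 26.3% and 34.4% of cases in SCNT, 21.7% and 27.4% in parthenogenetic and 25.8% and 34.2% in fertilized embryos, and 29.7% in SCNT and 25.8% in fertilized 2-cell embryos were lower with amanitin. Of 14 polymerase I factors, 11 rose and 3 fell between the stages in SCNT (median 1.43), 10 rose and 2 fell in parthenogenetic (median 0.89) and 10 rose and 1 fell in fertilized embryos (median 2.07), the fertilized ones including Taf1c (4.78) and Taf1d (4.09), components of the selectivity factor SL1, and 12 of 14 were lower with amanitin in SCNT and 14 of 14 in fertilized 2-cell embryos (medians -2.39 and -2.44). Cd3eap, the partner of Polr1e, was lower with amanitin in fertilized embryos (-4.38), as were Twistnb (-0.74) and Znrd1 (-2.75), both polymerase I subunits. Of 19 polymerase III factors 18 were measured: 13 rose and 4 fell between the stages in SCNT (median 1.37), 8 rose and 4 fell in parthenogenetic (median 0.13) and 12 rose and 4 fell in fertilized embryos (median 1.24). In fertilized embryos Snapc2 (4.32), of the complex that binds small nuclear RNA promoters, and Gtf3c5 (4.09), of the factor TFIIIC, rose most, and Ssb, the La protein that binds new polymerase III transcripts, fell by 3.63. With amanitin 14 of the 18 were lower in SCNT and 15 in fertilized 2-cell embryos, while Ssb was higher in both (1.80 and 0.81).

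Of 18 polymerase II elongation factors 16 were measured: 10 rose and 3 fell between the stages in SCNT (median 0.82), 6 rose and 6 fell in parthenogenetic (median 0.01) and 9 rose and 5 fell in fertilized embryos (median 0.83). With amanitin 13 were lower and 2 higher in SCNT and 11 lower and 5 higher in fertilized 2-cell embryos, where 39.6% and 38.6% of all genes were higher. Ell2, a subunit of the super elongation complex, rose by 4.86 in fertilized embryos, and Tcea1, which helps arrested polymerase II resume, was higher with amanitin (1.81 and 0.90 in SCNT and fertilized embryos). Among 11 assembly and import factors 7 rose and 3 fell between the stages in SCNT (median 0.68), 3 rose and 3 fell in parthenogenetic (median -0.22) and 4 rose and 4 fell in fertilized embryos (median 0.20), the last near the shares of all genes. With amanitin 7 were lower and 3 higher in SCNT, and 5 lower and 3 higher in fertilized 2-cell embryos. Gpn3, a GTPase needed for nuclear import of polymerase II, rose by 3.88 in fertilized embryos and was lower with amanitin (-3.29 in SCNT and -3.65 in fertilized embryos), while Rpap2, a phosphatase of the Polr2a tail, fell by 1.52 in fertilized embryos and was higher with amanitin (2.23 and 1.76).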

How the data were processed

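The deposited tables give a linear intensity between 0 and 24409.9 for each probe set on each array. The values show that the authors had scaled each array to a 2% trimmed mean of 150. Per the labels, the arrays were hybridized with amplified, biotin-labelled poly(A) RNA; the software is not given in the sources used here. A constant of 6.9, the 20th percentile, was added to the deposited intensity before log2 values were taken and quantile normalized. Of 45101 probe sets, 64 controls were set aside before normalization, and 31153 of the other 45037 exceeded 5.34, the median of all values, on 4 or more arrays. A platform table gave 1 gene to 34945 probe sets, several to 932 and none to 9160. The highest-mean probe set stood for each gene, which left 14916 genes.

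All 39 arrays in 10 groups were fitted in limma 3.58.1 (R 4.3.3; lmFit, eBayes with trend, 29 residual degrees of freedom) for 15 comparisons and 3 differences between comparisons, with Benjamini-Hochberg adjustment over all genes and a threshold of 0.05. The fit was tested on simulated data. Named genes are all 25 subunits, and for the other lists those with the largest called differences in each direction or a partner of a subunit. The members and lists were chosen with earlier results of these data known. The alternatives were the values as deposited, median centring, constants of 1.8 and 22.1, no filter, no trend, averaging the probe sets of a gene, only the groups compared, the replicate number as a block, and leaving out each array. Arrays of the same replicate number had residual correlations of -0.115 to 0.113, so the numbers were not taken to pair samples. The number of arrays limits the precision.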

Additional observations from a re-analysis of the deposited data

Results flagged for a closer look

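Single arrays stood apart from their group, by the gap to the nearest array relative to the group's range (Dixon's test), in 13 of 225 sets of 4 arrays, and chance flags about 1 in 20 such groups. In amanitin-treated 2-cell fertilized embryos Polr1b was at 6.37 in replicate 1 (nearest array 5.73), Polr3a was at 7.77 in replicate 4 (nearest array 8.15), and Polr3k was at 8.63 in replicate 4 (nearest array 9.20). In 1-cell fertilized embryos Polr2a was at 7.44 in replicate 1 (nearest array 6.97) and Polr2d was at 10.20 in replicate 2 (nearest array 10.41). In 2-cell fertilized embryos Polr2a was at 8.08 in replicate 1 (nearest array 7.85) and Polr2m was at 9.03 in replicate 3 (nearest array 9.32). In amanitin-treated 2-cell SCNT embryos Polr2d was at 6.42 in replicate 1 (nearest array 7.90). In 2-cell parthenogenetic embryos Polr2i was at 8.17 in replicate 4 (nearest array 8.47). In amanitin-treated 1-cell fertilized embryos Polr2j was at 10.27 in replicate 3 (nearest array 10.01). In amanitin-treated 1-cell SCNT embryos Polr2f was at 10.08 in replicate 2 (nearest array 10.63) and Polr3b was at 6.22 in replicate 4 (nearest array 6.63). In 1-cell parthenogenetic embryos Polr2h was at 7.73 in replicate 1 (nearest array 7.88).

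The effect of amanitin at the 2-cell stage differed between SCNT and fertilized embryos (limma interaction, SCNT minus fertilized, log2). The difference was negative for Polr2g (-4.02), Polr2h (-3.78), Polr2a (-2.73), Polr3k (-2.65), Polr3c (-1.88), Polr1d (-1.76), Polr2f (-1.63), Polr2i (-1.54), Polr2m (-1.44), Polr3e (-1.04), Polr1c (-0.95) and Polr2b (-0.88). It was positive for Polr3f (1.31), Polr3gl (0.99), Polr3d (0.67) and Polr2c (0.26). Calls were lost with the mean of probe sets for Polr3f (0.32, adjusted p = 0.234) and Polr3e (-0.15, adjusted p = 0.782), with median centring for Polr3d (0.41, adjusted p = 0.147) and Polr2b (-0.61, adjusted p = 0.116), and with the larger constant for Polr1c (-0.16). The Polr2b call was lost without amanitin-treated 2-cell SCNT replicate 3 (-0.52) or 4 (-0.75), and those of Polr3gl and Polr2c were lost when any of 4 and any of 8 arrays was left out (0.71 to 0.91 and 0.21 to 0.26).

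The change between the stages differed between SCNT and fertilized embryos without amanitin (SCNT minus fertilized, log2). The difference was negative for Polr3b (-1.04), Polr1c (-1.01), Polr1e (-0.84) and Polr2c (-0.77). It was positive for Polr2g (1.43). The Polr3b call was lost with the mean of probe sets (-0.17, adjusted p = 0.814).

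The change between the stages differed between parthenogenetic and fertilized embryos (parthenogenetic minus fertilized, log2). The difference was negative for Polr3g (-2.76), Polr2m (-2.70), Polr2h (-2.65), Polr3b (-2.07), Polr1c (-1.66), Polr3c (-1.44), Polr2i (-1.43), Polr3e (-1.42), Polr2e (-1.38), Polr3a (-1.13), Polr1e (-0.92), Polr3d (-0.79), Polr3f (-0.77), Polr1d (-0.67), Polr2f (-0.67) and Polr3k (-0.55). It was positive for Polr2g (1.16) and Polr2c (0.70). With the mean of probe sets the calls of Polr1d (-0.42) and Polr3k (-0.28) were lost.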

How the results depend on the processing

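Of 251 called gene differences, recomputed as 4550 values over all settings, 19 calls were lost with no change of sign when the probe sets of each gene were averaged, 16 with only the groups compared and 13 with median centring. The replicate number as a block ended 2 of the 251 calls. Another 5 calls were lost with a change of sign: with median centring, Polr2d (-0.00862) and Polr3a (-0.0358) between the stages in parthenogenetic embryos; with the mean of probe sets, Polr3e between the stages in amanitin-treated SCNT embryos (0.186), Polr3d with amanitin in SCNT 2-cell embryos (-0.104) and Polr3a in amanitin-treated 2-cell SCNT against fertilized embryos (0.00856). Counts moved by over 1.5 times in 4 comparisons. For amanitin in 1-cell fertilized embryos the 2 calls became 4 on the values as deposited, 6 with median centring, 1 with the mean of probe sets, and 1 to 3 when single arrays were left out. For SCNT against fertilized embryos with only the groups compared, 1 call became 0 at the 1-cell stage (0 to 2 without single arrays) and 6 became 11 at the 2-cell stage (5 to 7). The 5 differences in stage change between SCNT and fertilized embryos became 3 with the mean of probe sets (4 to 7 without single arrays), and the 0 calls for amanitin in 1-cell SCNT embryos were 0 to 1. For 31 calls there was an array without which the call was lost. The causes were not tested. The median of all genes shifted with the scaling, for instance between the stages in parthenogenetic embryos, where it was -0.04, or 0.21 as deposited and -0.26 with median centring. Dim groups limit fold changes: for Polr1c with amanitin in SCNT embryos the difference was -8.64 with the smaller constant and -6.30 with the larger.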
